A study of Mus musculus with 3 samples.

Results

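Activated CD4 T cells receive interleukin-2 (IL-2) through a receptor and a short signaling chain, and 10 genes of that system were followed here across culture media. The genes were Il2ra, Il2rb and Il2rg, which encode the receptor chains, Jak3, Stat5a and Stat5b, which encode the kinase and the transcription factors below the receptor, Cish, Socs1 and Socs2, which encode feedback inhibitors, and Pim1, which encodes a kinase induced by STAT5. Their rows were found by gene symbol, and each matched a row, so 10 of the 23282 rows of the deposited tables are described. The genes themselves were chosen with earlier results of these data known. C57BL/6 mice (female and 6–8 weeks old by the study's general description) gave CD4 T cells, isolated from lymph nodes and spleen, that were activated through CD3 and CD28, with each antibody at 2 µg/mL, and cultured for 72 h. Complete medium (CM) was RPMI medium with 10% serum. Dialyzed medium (DM) was RPMI medium without amino acids, with 10% serum in which nutrients had been reduced by dialysis. The paper measured methionine in DM and found that some was still present. DM+Met was DM to which 30 µM methionine was added. All 3 media thus share the strain, the cell isolation and the stimulation, and CM differs from DM in all amino acids and other small nutrients, not in methionine alone. No added IL-2 is described for these cultures.

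The IL-2 receptor is built from an alpha chain (CD25) that raises affinity for IL-2, and from the beta and common gamma chains that signal. JAK1 binds the beta chain and JAK3 binds the gamma chain, and together they phosphorylate STAT5A and STAT5B, which enter the nucleus and switch on target genes. Il2ra is itself such a target, so the pathway amplifies its own receptor. Cish, Socs1 and Socs2 are also targets, and their products (CIS, SOCS1 and SOCS2) dampen cytokine signaling at the receptor or the kinase. PIM kinases support growth and survival of lymphocytes. These statements are background and were not measured here.

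RNA was sequenced from 6 libraries, 2 for each medium, with a 3′-end kit. Such kits read the 3′ end of a transcript and do not favor long ones, so levels of different genes are compared without a correction for length. Depth ranged from 8504742 to 12377285 reads per library. Levels are log2 values of CPM plus 1, where CPM is a read count scaled to a common library total with TMM factors, as deposited by the authors, and the reads behind each value were recovered from the equal steps of the values. A single ribosomal RNA row, Rn45s, took 31.04% to 38.3% of reads in CM and DM, and 15.47% and 20.06% in DM+Met. The 2 files of a medium were taken as replicates because the study describes 2 biologically independent samples. The labels do not say whether they are separate cultures, so the p-values measure only the spread between these files. Differences were tested with limma over 12770 rows, and "called" means an adjusted p below 0.05 over all of them. The T cell markers Cd3e and Cd4 were read in every library, at log2 levels of 6.48 to 7.53 and of 7.34 to 8.12. Of the 7 T cell markers, Cd5 (1.42, limma adjusted p 0.00591), Cd2 (0.84, 0.00403) and Cd3g (0.72, 0.0349) were called higher and Cd28 (−0.53, 0.049) lower in DM against CM. Cd5 and Cd2 were also called higher in DM+Met against CM (1.13 and 0.96). These were 4 of 7 in DM and 2 of 7 in DM+Met, against 16.9% and 15.3% of all rows. In bulk RNA, fewer cells of a type and less RNA per cell cannot be told apart.

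All 10 genes were abundant. Over the 6 libraries Il2ra had the highest mean level (10.10 on the log2 scale, above 99.5% of tested rows) and Stat5a the lowest (6.77, above 90.3%). The smallest number of reads behind any value was 595, for Socs1 in CM, and the largest was 16222, for Il2ra in DM+Met. In CM the mean CPM fell in the order Il2ra (978), Pim1 (776), Il2rb (742), Cish (294), Il2rg (223), Jak3 (161), Stat5a (159), Stat5b (151), Socs2 (145) and Socs1 (78.3). The ranges of Jak3, Stat5a, Stat5b and Socs2 overlapped in CM, as did those of Pim1 and Il2rb, so these neighbors did not differ in level beyond their spread. In DM the order was Il2ra (1050.5), Pim1 (703), Cish (573), Il2rb (494), Socs2 (351), Il2rg (228), Socs1 (215), Jak3 (182), Stat5b (107) and Stat5a (85.5). Pim1 overlapped Cish there, and Socs1 overlapped Il2rg and Jak3. In DM+Met it was Il2ra (1295), Pim1 (1067), Cish (551), Socs2 (513), Il2rb (487), Il2rg (288), Socs1 (284), Jak3 (221), Stat5b (98.6) and Stat5a (95.2). Neighbors from Cish to Il2rb overlapped, as did Il2rg with Socs1 and Stat5b with Stat5a.

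**Figure D1:**
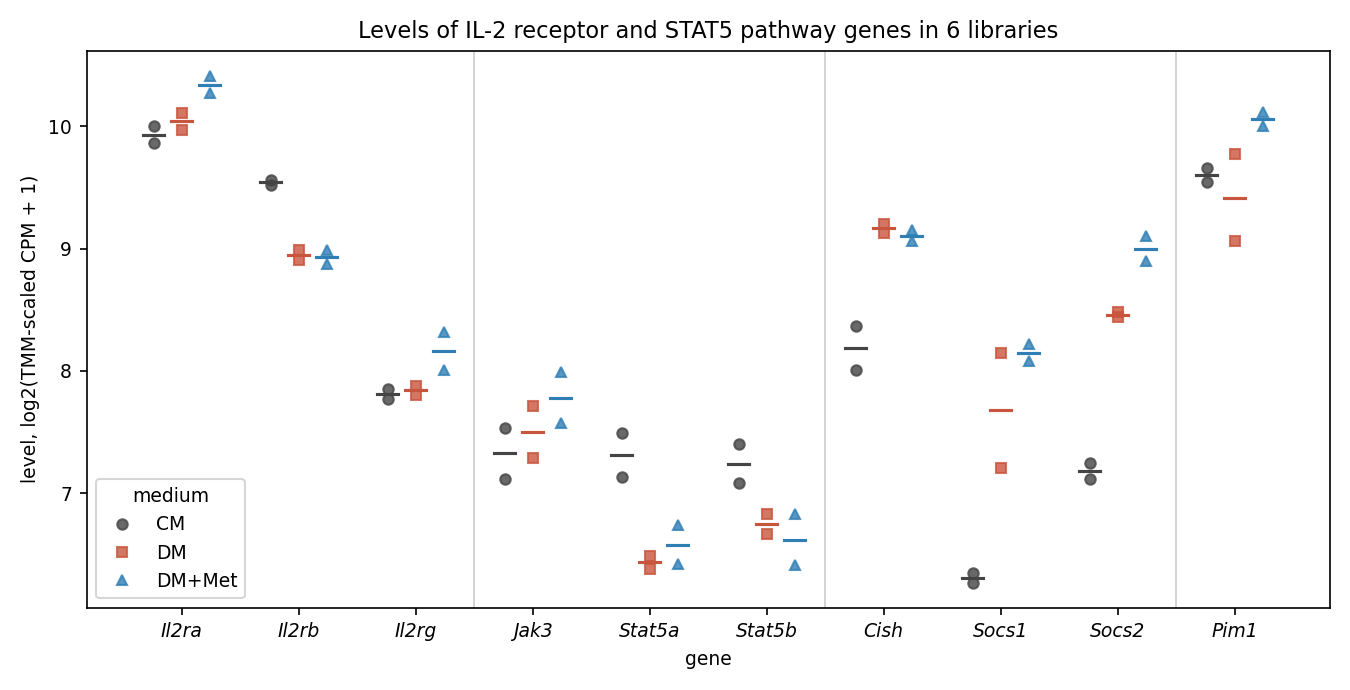
Level of each gene, as log2(TMM-scaled CPM + 1) on the vertical axis, in the 2 libraries of CM (circles), DM (squares) and DM+Met (triangles), with bars at the mean of a medium. Cish, Socs1 and Socs2 lie higher in both dialyzed media than in CM, Il2rb and Stat5a lie lower, and the DM libraries of Socs1 and Pim1 are far apart.

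The first question was what nutrient reduction changes in this system. Between DM and CM, 5 of the 10 genes were called, against 16.9% of all tested rows. The 3 feedback inhibitors Cish, Socs1 and Socs2 rose (7.8% of all rows were called higher), and Il2rb and Stat5a fell (9.07% were called lower). The other 5, Il2ra, Il2rg, Jak3, Stat5b and Pim1, did not pass the threshold. The libraries of DM and CM did not overlap for 6 of the 10 genes, 3 higher and 3 lower in DM, against 54.1% of all rows in either direction. The median difference of the 10 genes was 0.07 on the log2 scale, and that of all tested rows was 0.07 as well.

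Of the receptor chains, Il2rb fell in DM, and Il2ra and Il2rg did not pass the threshold. Il2rb, the signaling beta chain at chr15:78479256-78511621 (positions of genes are RefSeq, assembly GRCm38.p6), had log2 levels of 9.52 and 9.56 in CM, 8.91 and 8.99 in DM, with 8.87 and 8.99 in DM+Met. Both dialyzed media lay below both CM libraries and overlapped each other. Il2rb fell by 0.59 in DM against CM (SE 0.13, limma adjusted p 0.0161), so that CM was 1.5-fold above DM. This call was lost when either CM library, DM library 1 or either DM+Met library was left out, with changes of −0.61 to −0.55 and adjusted p-values of 0.0587 to 0.0927. It was also lost without an intensity trend (adjusted p 0.174), with only CM and DM in the fit (0.0566) and with Rn45s left out of library totals (0.0507).

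Il2ra encodes the alpha chain CD25, at chr2:11642792-11693194. Its log2 levels were 10.00 and 9.86 in CM, 10.11 and 9.97 in DM, with 10.41 and 10.27 in DM+Met. The CM and DM libraries overlapped, and both DM+Met libraries lay above the other 4. Between DM and CM the difference was 0.10 (SE 0.14), with a 95% interval of −0.20 to 0.41. In linear terms the interval runs from 0.87-fold to 1.33-fold, so a larger change in either direction lies outside it.

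Il2rg encodes the gamma chain that IL-2 shares with the IL-4, IL-7, IL-9, IL-15 and IL-21 receptors, and it lies at chrX:101264385-101268255. It was read at 7.77 and 7.85 in CM, 7.80 and 7.88 in DM, with 8.01 and 8.32 in DM+Met. CM and DM overlapped again, with a difference of 0.03 (95% interval −0.33 to 0.39). Part of its 3′ end is also annotated as Gm20489, a gene model on the same strand, so reads of the 2 models cannot be told apart.

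Below the receptor, Stat5a fell in both dialyzed media, and Stat5b and Jak3 did not pass the threshold in either. Stat5a and Stat5b are neighbors on chromosome 11 (chr11:100859351-100885169 and chr11:100780731-100859004) that encode closely related factors. Stat5a had log2 levels of 7.13 and 7.49 in CM, 6.38 and 6.49 in DM, with 6.74 and 6.42 in DM+Met. All 4 libraries from dialyzed media lay below both CM libraries. Stat5a fell by 0.88 in DM (SE 0.20, adjusted p 0.0174). With any one of the 6 libraries left out the change was −1.05 to −0.70, and the call was lost each time, with adjusted p-values of 0.0583 to 0.113. It was lost too without a trend (0.102) and with only CM and DM in the fit (0.0591).

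Stat5b was read at 7.40 and 7.08 in CM, 6.67 and 6.83 in DM, with 6.83 and 6.41 in DM+Met. Its DM and DM+Met libraries were also all below CM, by less than for Stat5a. The difference between DM and CM was −0.49 (SE 0.21, 95% interval −0.95 to −0.03), with an adjusted p of 0.134 that did not pass the threshold. Whether Stat5a and Stat5b responded differently was not tested. Of the 50-base stretches in the last 600 bases of Stat5a transcripts, 6.53% also occur in Stat3 or Stat5b, and the exons of Stat3 overlap those of Stat5a on the opposite strand. Stat3 had 4295 to 6264 reads per library, against 808 to 1395 for Stat5a, and was called lower in DM too (−0.54, limma adjusted p 0.0313). Without stated strand handling, reads from the overlap cannot be told apart. The part of Stat3 reads in the fall of Stat5a was not tested.

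Jak3 (chr8:71676383-71690577) was read at 7.12 and 7.53 in CM, 7.71 and 7.29 in DM, with 7.57 and 7.99 in DM+Met. The libraries of one medium differed by 0.40 to 0.42, which is more than the difference of 0.18 between DM and CM (95% interval −0.31 to 0.67). Its 3′ end overlaps that of Insl3 on the same strand, a gene with 0 reads in each library.

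The feedback inhibitors were the group of members that rose. Cish (chr9:107296659-107302784) encodes CIS, the first described member of this inhibitor family, and is a textbook STAT5 target. Its log2 levels were 8.01 and 8.37 in CM, 9.13 and 9.20 in DM, with 9.06 and 9.15 in DM+Met. The 4 libraries from dialyzed media lay close together, all above CM. Cish rose by 0.97 in DM (SE 0.16, adjusted p 0.00355), which is 1.96-fold. The call was lost without CM library 1, DM library 1 or DM library 2, with changes of 0.79 to 1.0 and adjusted p-values of 0.0554 to 0.0579, and without a trend (0.0731).

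Promoter sequence was searched for the palindromic STAT motif TTCNNNGAA, in windows from 250 bases before to 50 bases after each annotated start (RefSeq, assembly GRCm38.p6). Windows were given for 8 of the 10 genes, 11 windows in all, and not for Il2rb and Socs2. Cish alone held the motif, in 2 copies that begin at chr9:107296659 and chr9:107296670. Of 32851 windows of all genes, 8.3% hold at least 1 copy and 0.457% hold at least 2. Of the other pathway genes listed further on, 9 of the 43 with a window hold a copy in at least 1 window. Some genes have more than 1 window, so this count of genes cannot be set against the share of windows. In DM against CM, Lta among the 9 was called higher, and Gzmb and Il7r were called lower. Of all rows, 7.8% were called higher and 9.07% lower in that comparison. The lists that hold the 9 genes were chosen with earlier results of these data known. Foxp3, Il4, Tnfrsf9, Tnfrsf18, Socs3 and Bcl6, which holds 3 copies in 1 window, were not called. The sequences of Cish, of Socs1, which rose without a copy in its window, and of Lta, a cytokine gene described further on with 2 copies, are printed 5′ to 3′ on the coding strand with the motif in capitals. They cover chr9:107296599-107296678 (plus strand), chr16:10785537-10785616 (minus strand) and chr17:35205352-35205521 (minus strand).
Cish: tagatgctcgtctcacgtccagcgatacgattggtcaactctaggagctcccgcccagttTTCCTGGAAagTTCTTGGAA
Socs1: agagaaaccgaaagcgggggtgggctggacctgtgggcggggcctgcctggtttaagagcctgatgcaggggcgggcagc
Lta: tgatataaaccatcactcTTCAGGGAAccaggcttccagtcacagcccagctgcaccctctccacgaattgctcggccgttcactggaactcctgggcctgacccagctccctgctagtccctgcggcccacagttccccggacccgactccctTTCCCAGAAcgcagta
The copies of Cish lie side by side, separated by 2 bases, while those of Lta stand near both ends of the stretch. In Cish, 1 copy begins at the annotated start and the other 11 bases after it, so neither lies before the start. Those of Lta begin 152 and 16 bases before its start. A match describes letters in these windows only, and distal elements were not examined.

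Socs1 (chr16:10783808-10785536) encodes an inhibitor that acts on JAK kinases. It had log2 levels of 6.35 and 6.27 in CM, 8.15 and 7.21 in DM, with 8.08 and 8.22 in DM+Met. All 4 libraries from dialyzed media were above CM, but the DM libraries were 0.93 apart, where the median gap over all rows in DM was 0.47. Socs1 rose by 1.37 in DM (SE 0.26, adjusted p 0.00772). Leaving out DM library 1 gave a change of 0.91, leaving out DM library 2 gave 1.84, and both kept the call. It was lost without either CM library (adjusted p 0.0841 and 0.0828) or either DM+Met library (0.0525 and 0.0524), and also without a trend (0.0727) and with only CM and DM in the fit (0.052).

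Socs2 (chr10:95383903-95417321) encodes an inhibitor best known for limiting growth hormone signaling through STAT5. It was read at 7.12 and 7.25 in CM, 8.48 and 8.44 in DM, with 9.10 and 8.90 in DM+Met. The 3 media did not overlap, in the order CM, DM, DM+Met. Socs2 rose by 1.27 in DM (SE 0.15, adjusted p 8.69e-04), or 2.41-fold with a 95% interval of 1.92 to 3.04. It was called under each of 16 alternative analyses of DM against CM. Part of its 3′ end (22.9% of 50-base stretches) recurs in the gene models Gm8000 and Gm9847, which leaves its exact level uncertain.

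Pim1 (chr17:29490785-29496111) encodes a survival kinase. Its log2 levels were 9.66 and 9.54 in CM, 9.06 and 9.77 in DM, with 10.00 and 10.12 in DM+Met. The DM libraries lay on both sides of CM, and both DM+Met libraries were above the other 4. The difference between DM and CM was −0.18 (SE 0.21, 95% interval −0.65 to 0.28), and leaving out DM library 1 gave 0.17, and leaving out DM library 2 gave −0.54. Cish and Pim1 share 17.4% and 16.7% of such 3′ stretches with gene models on the opposite strand (Gm17040 and Gm17041, and Gm26885), and without stated strand handling their reads cannot be told apart. Pim2 and Pim3, which encode the other kinases of the family, were both called, and their changes were not tested against that of Pim1. Pim2 fell from 7.61 and 7.92 in CM to 6.65 and 6.67 in DM (−1.11, adjusted p 0.00326). Pim3 fell from 7.74 and 7.96 to 5.87 and 5.38 (−2.22, adjusted p 4.27e-04).

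**Figure D2:**
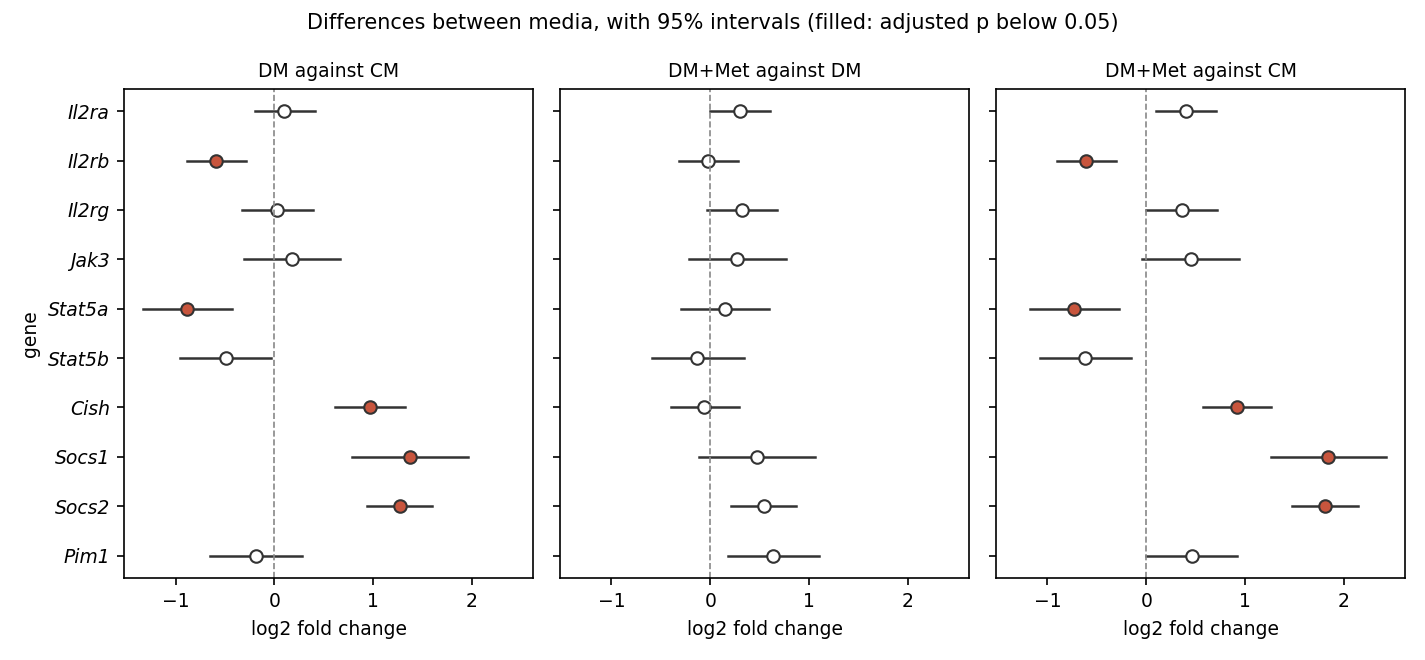
Log2 fold change (horizontal axis) of the 10 genes in each comparison, named above its panel, with 95% intervals from limma, and filled points where the adjusted p was below 0.05. Il2rb, Stat5a, Cish, Socs1 and Socs2 are filled in DM against CM and in DM+Met against CM, and no point is filled in DM+Met against DM.

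The second question was what methionine changes in DM. Comparing DM+Met with DM, limma called none of the 10 genes, against 0.0548% of all rows. At an unadjusted p below 0.05 there were 2 genes, Socs2 and Pim1, against 9.69% of all rows, and limma-voom called 0 of the 10 as well. Socs2 differed by 0.54 (95% interval 0.21 to 0.87, adjusted p 0.311) and Pim1 by 0.64 (95% interval 0.18 to 1.10, adjusted p 0.367). For Pim1, leaving out DM library 1 gave 0.29, and leaving out DM library 2 gave 1.0. When library totals replaced TMM, Socs2 passed the threshold at a difference of 0.91 and an adjusted p of 0.0486, while the median of all rows became 0.34.

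The libraries of DM+Met and DM did not overlap for 4 of the 10 genes, near the 41.0% of all rows. All 4 (Il2ra, Il2rg, Socs2 and Pim1) were higher in DM+Met, a direction seen in 20.4% of all rows. The differences were 0.30 for Il2ra (95% interval −0.003 to 0.61) and 0.32 for Il2rg (−0.03 to 0.68). For Il2rb, Stat5a and Stat5b the differences were −0.02, 0.15 and −0.13. Their intervals were −0.32 to 0.28, −0.30 to 0.60 and −0.59 to 0.34, with 0 inside each. Cish differed by −0.06 (−0.40 to 0.29) and Socs1 by 0.47 (−0.11 to 1.06). Cish, Stat5a, Stat5b and Il2rb overlapped between DM and DM+Met.

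The third question was what still separated DM+Met from CM. Between DM+Met and CM, 5 of the 10 genes were called, against 15.3% of all rows, with 3 higher (6.92% of all rows) and 2 lower (8.36%). They were Cish, Socs1, Socs2, Il2rb and Stat5a, called in DM against CM too, and both comparisons use the same CM libraries. Socs1 rose by 1.84 (SE 0.26, adjusted p 0.00165) and Socs2 by 1.81 (SE 0.15, adjusted p 1.11e-04), which are 3.59-fold and 3.51-fold. Cish rose by 0.92 (SE 0.16, adjusted p 0.00429), while Il2rb fell by 0.61 (SE 0.13, adjusted p 0.0135) and Stat5a fell by 0.73 (SE 0.20, adjusted p 0.0373).

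The libraries of DM+Met and CM did not overlap for any of the 10 genes, against 60.9% of all rows. Among the 5 not called, Il2ra differed by 0.40 (adjusted p 0.0741), Il2rg by 0.36 (0.167), Jak3 by 0.45 (0.201), Pim1 by 0.46 (0.167) and Stat5b by −0.62 (0.0741). These values depend on scaling. Il2ra was called in 4 of 16 alternative analyses, and not all of these change the scaling. Under library totals the median of all rows was 0.41 rather than 0.06, Il2ra, Il2rg, Jak3 and Pim1 were called higher (0.75 to 0.85), and Il2rb (−0.21) and Stat5a (−0.34) lost their calls. With Rn45s left out of the totals the median was 0.18, Il2ra was called (0.53, adjusted p 0.0301) and Stat5a was not (−0.61, adjusted p 0.0685). Only Socs2 was called with either DM+Met library left out. Without DM+Met library 1 and library 2, the adjusted p was 0.0606 and 0.0733 for Socs1, 0.0798 and 0.104 for Cish, 0.167 and 0.113 for Il2rb, and 0.147 and 0.319 for Stat5a. Without CM library 1, Cish (0.0601) lost its call too, and Il2rb lost it without either CM library (0.0872 and 0.0885). Stat5a was called in none of the 6 fits with 1 library left out (−0.91 to −0.55). Without an intensity trend, Cish (0.0936), Il2rb (0.178) and Stat5a (0.165) lost their calls, and Stat5a also lost it with no filter (0.0698) and with only CM and DM+Met in the fit (0.0814).

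Ratios between genes within one library do not depend on how libraries are scaled. They were chosen after the levels had been seen and are given as a description. The summed CPM of Cish, Socs1 and Socs2 was 476 and 559 in CM, 1199 and 1079 in DM, with 1354 and 1343 in DM+Met. The summed CPM of Stat5a and Stat5b was 307 and 313, 183 and 201, and 219 and 169. The ratio of the first sum to the second was therefore 1.67 ± 0.168 (SD, n = 2) in CM, against 5.95 ± 0.832 in DM and 7.07 ± 1.25 in DM+Met. It is a ratio of reads and not of transcript numbers, since Cish, Socs2 and Stat5a share part of their 3′ ends with other gene models. The CM libraries lay far below the other 4, and DM and DM+Met overlapped.

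Among the receptor chains, Il2ra per Il2rb was 1.4 and 1.23 in CM, 2.29 and 1.97 in DM, with 2.91 and 2.43 in DM+Met. Il2rb per Il2rg was 3.38 and 3.28 in CM, 2.16 in both DM libraries, with 1.82 and 1.59 in DM+Met. The media did not overlap in either ratio. Il2ra per Il2rg ranged from 3.86 to 5.31 and overlapped across all 3 media. Reads of the alpha and gamma chain genes thus kept their proportion within the spread of the libraries, while those of the beta chain gene lost ground to both. Reads of Il2rg can include those of Gm20489, which shares 43.1% of its 3′ stretches.

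**Figure D3:**
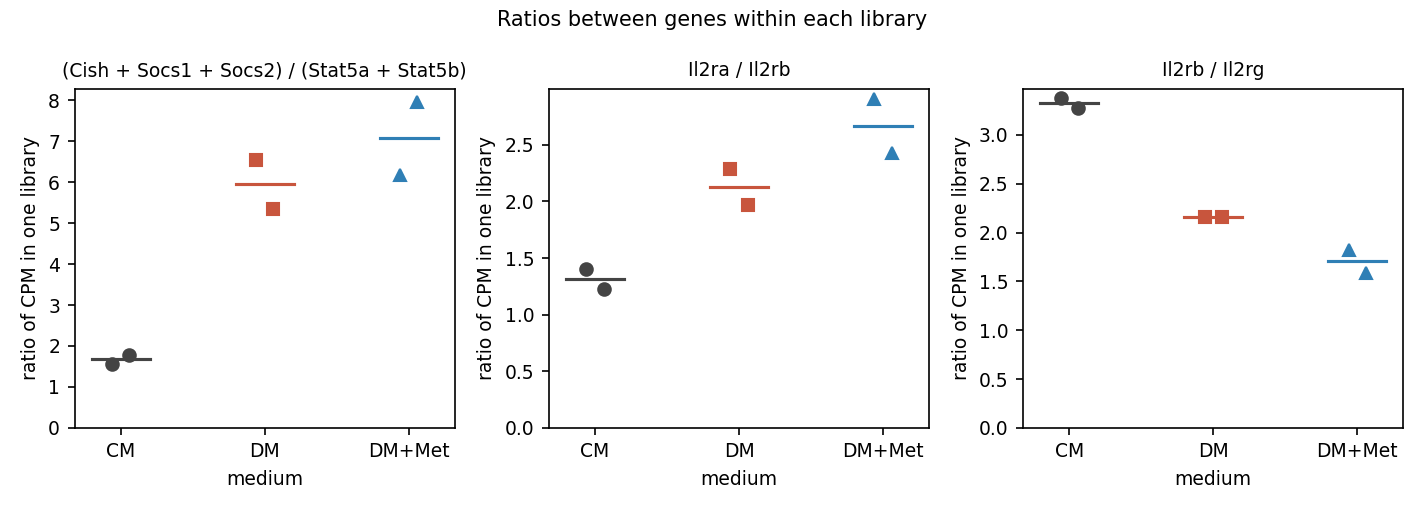
Ratio of CPM within each library (vertical axes from 0) in CM, DM and DM+Met, with bars at the mean of 2 libraries. The left panel shows the feedback inhibitors per STAT5 gene (below 2 in CM, above 5 in the other 4 libraries), and the other panels show Il2ra per Il2rb and Il2rb per Il2rg, where the media do not overlap.

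Other genes of the pathway were taken from lists chosen with earlier results of these data known, and are given by their counts. Of the 6 cytokines that signal through the gamma chain, 4 had enough reads to test. Against CM, 2 of these 4 were called in DM and 2 in DM+Met, where 16.9% and 15.3% of all rows were called. Il2 itself had 10 reads in CM library 2 and 0 in the other 5, where 0 allows up to 3 reads, so no fold is given. Il9, a cytokine of helper T cells, rose in both dialyzed media, from 0 and 8 reads in CM to 178 and 422 in DM, with 1422 and 1118 in DM+Met. Its change was 4.25 in DM (adjusted p 7.87e-04) and 6.23 in DM+Met (adjusted p 8.96e-05), both against CM. Il21, a cytokine of follicular helper T cells, fell in both, from 282 and 393 reads in CM to 11 and 36 in DM, with 78 and 42 in DM+Met (−3.79 and −2.82, adjusted p 0.00237 and 0.0086).

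Of 5 other receptor chains that pair with the gamma chain, 1 fell in each comparison with CM and none rose, where 9.07% of all rows were called lower in DM and 8.36% in DM+Met. Il7r, the IL-7 receptor alpha chain, had log2 levels of 8.25 and 8.03 in CM, 7.37 and 7.47 in DM, with 7.87 and 7.70 in DM+Met. It fell in DM (−0.72, adjusted p 0.0145), and differed by −0.36 in DM+Met (adjusted p 0.16). Il4ra, the IL-4 receptor alpha chain, fell in DM+Met (−0.55, adjusted p 0.0467) and differed by −0.52 in DM (adjusted p 0.0527).

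Of 18 other kinase, STAT and adaptor genes, 1 rose and 2 fell in DM, and 3 rose and 3 fell in DM+Met, each against CM. All called together, this was 3 of 18 and 6 of 18, against 16.9% and 15.3% of all rows, so the count in DM was at the background. Pik3r1, a regulatory subunit of PI3 kinase, rose in both (1.30 and 1.28, adjusted p 0.00403 and 0.00393), and Pik3cd, a catalytic subunit, fell in both (−0.63 and −1.07, adjusted p 0.0169 and 0.00122). Stat3 fell in DM (−0.54, adjusted p 0.0313). In DM+Met, Jak1, the partner of JAK3 on the IL-2 receptor, rose (0.69, adjusted p 0.0284), as did Stat6 (0.63, adjusted p 0.0465), while the phosphatase genes Ptpn2 (−0.97) and Ptpn6 (−0.60) fell. Of 7 further SOCS and PIM genes, Pim2 and Pim3 fell in both comparisons and none rose, against 9.07% and 8.36% of all rows called lower. Socs3, a SOCS gene mainly induced through STAT3, differed by −0.43 in DM (adjusted p 0.154), opposite in sign to Cish, Socs1 and Socs2.

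Of 15 other genes known to be induced by IL-2 or STAT5, 4 rose and 2 fell in DM, and 6 rose and 5 fell in DM+Met, each against CM. Of all rows, in DM 7.8% were called higher and 9.07% lower, against 6.92% and 8.36% in DM+Met. The genes that rose in both were Bcl2, which blocks cell death, the cyclin gene Ccnd2, the growth regulator Myc and the cytokine gene Lta. Bcl2 had log2 levels of 8.71 and 8.89 in CM, 9.92 and 10.24 in DM, with 10.48 and 10.53 in DM+Met. Lta had 5.81 and 4.85, 7.50 and 7.38, and 8.40 and 8.54, so that its changes against CM were 2.10 in DM (adjusted p 0.00138) and 3.14 in DM+Met (adjusted p 1.49e-04). Ccnd2 rose by 0.95 and 1.06 and Myc by 1.66 and 1.54.

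Gzmb, which encodes granzyme B, and Tfrc, the transferrin receptor that marks growing cells, fell in both. Gzmb fell by 4.58 in DM and Tfrc fell by 1.65 (adjusted p 5.39e-05 and 6.93e-04). Called in DM+Met against CM but not in DM against CM, Foxp3 and Mcl1 rose (2.68 and 0.51), and Prdm1, Ccnd3 and Tnfrsf4 fell (−1.76, −0.54 and −0.62). In the direct comparison of DM+Met with DM none of these 5 was called. Of 4 genes (Il7r counted again) that IL-2 signaling is known to lower, Il7r fell in DM, and Il6ra rose in DM+Met (1.75, adjusted p 0.0136). Against CM, 1 of the 4 was called in DM and 1 in DM+Met, where 16.9% and 15.3% of all rows were called. For DM+Met against DM, no gene of these lists passed the threshold.

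**Figure D4:**
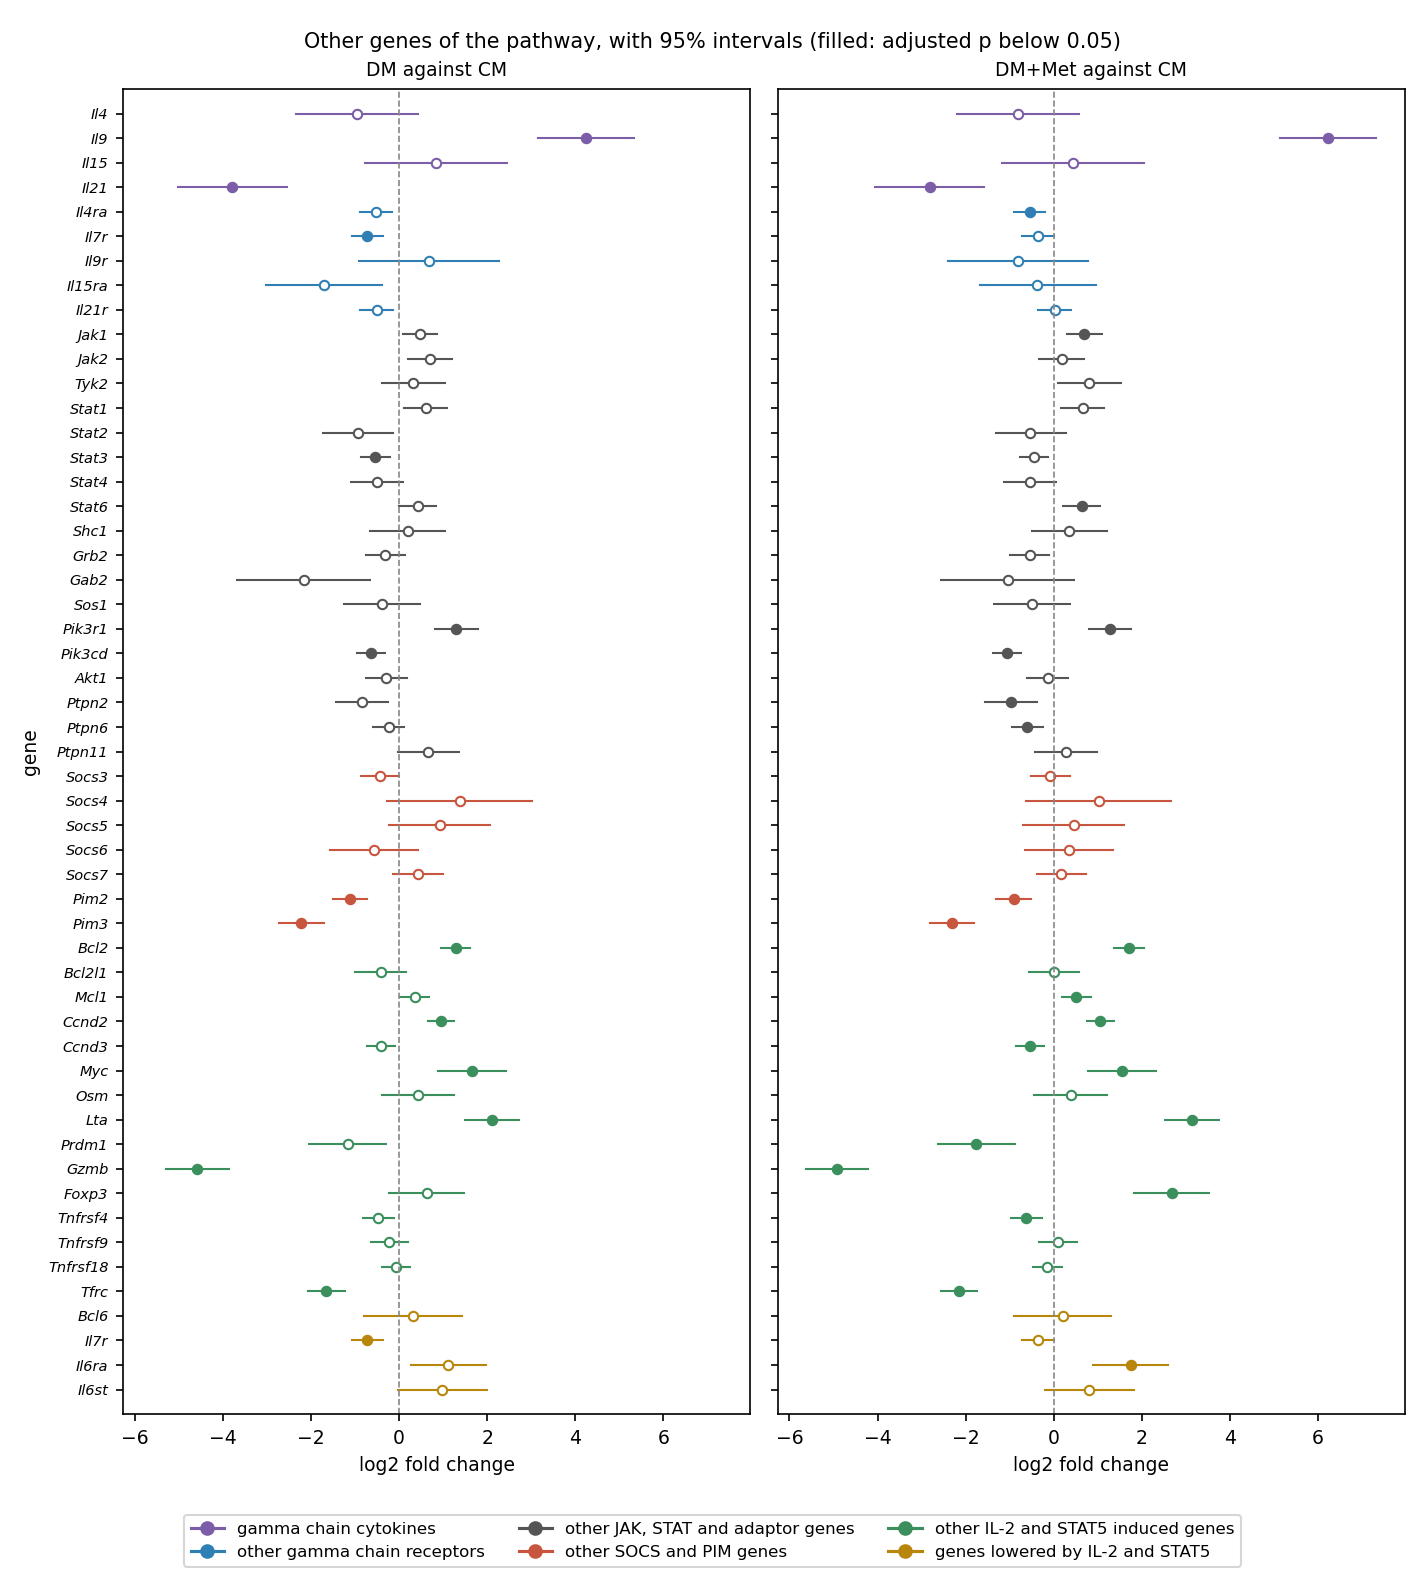
Log2 fold change (horizontal axis) of the other tested genes of the pathway in DM against CM (left) and DM+Met against CM (right), with 95% intervals, colored by list, and filled where the adjusted p was below 0.05. Il9 and Gzmb are the outermost points, and filled points lie on both sides of 0.

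Regulatory T cells carry high Il2ra, so their markers are given beside it. Foxp3, the defining factor of these cells, had log2 levels of 5.16 and 4.10 in CM, 5.71 and 4.81 in DM, with 7.21 and 7.41 in DM+Met. Ikzf2, which encodes Helios, had 4.97 and 4.91 in CM, 8.40 and 8.11 in DM, with 8.43 and 8.41 in DM+Met. Of the 4 markers, Ikzf2 rose in both dialyzed media (3.31 and 3.48), Foxp3 rose in DM+Met, Ctla4 fell in both (−1.44 and −1.60) and Tnfrsf18 was not called. Against CM, 2 of the 4 were called in DM and 3 in DM+Met, where 16.9% and 15.3% of all rows were called. The summed CPM of the 4 was 1274 to 1474 in all 6 libraries. Tnfrsf18 alone gave 807 to 999 of it, so the sum mostly follows that gene and not Foxp3 or Ikzf2. Both Foxp3 and Il2ra were highest in DM+Met. The part of regulatory T cells in the levels of the IL-2 receptor genes was not tested.

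Markers of other cells were low. The summed CPM of 5 B cell markers was 54 to 80.7 and that of 10 myeloid markers was 25.4 and 29.5 in CM and 43.3 to 56.8 in the dialyzed media, against 1593 and 1718 in CM and 2049.5 to 2260.5 in the dialyzed media for the 7 T cell markers. The 6 markers of CD8 T and NK cells summed to 73.4 and 82.4 in CM and 35.9 to 49.8 in the others. No B cell marker was called, and the B cell factor Pax5 had 0 reads throughout. Of the 10 myeloid markers, Lyz2 alone was called higher in DM and none in DM+Met, against 16.9% and 15.3% of all rows called. Of the CD8 and NK markers, 5 were tested, and 1 was called in DM and 2 in DM+Met, against the same shares of all rows. Cd8a was called lower in both (−1.72 and −1.76), and Klrb1c, with at most 45 reads, was called higher in DM+Met (2.10). Cd8b1 differed by −0.82 and −1.26 and was not called. The T cell and myeloid sums were higher and the CD8 and NK sum lower in the 4 libraries from dialyzed media, in the same direction as the feedback inhibitors and as Il2rb and Stat5a, respectively. Their part in those differences was not tested.

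The genes most like Il2ra and Cish across the 6 libraries were listed by Pearson's r of the log2 level over 7784 other rows with a mean of at least 10 CPM. For Il2ra these were Ykt6, Nab1, Sp1, Syngr2 and Israa, with r of 0.9745 to 0.9853. For Cish they included Xlr4a, Pik3r1, Tbc1d4 and S1pr1, with r of 0.996 to 0.9997. Pik3r1, also in the adaptor list, was read at 5.28 and 5.78 in CM and at 6.81 to 6.86 in the other 4 libraries. S1pr1, a receptor that guides T cells out of lymph nodes, was read at 4.43 and 5.12 in CM and at 7.42 to 7.84 in the others. With 6 points in 3 media, a high r mostly restates the order of the media, and no p is given.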

How the data were processed

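CD4 T cells from 3 media gave 6 libraries made with a 3′-end kit from 500 ng of RNA. Bowtie2, bedtools and build mm10 are named, without roles, in the submitters' processing notes. Annotation and strand handling are not given in the sources used here. The authors deposited log2 values of TMM-scaled CPM plus 1, to 3 decimals. The base and the added 1 follow from the values, since equal steps appeared once the log and the added 1 were undone. At up to 300 reads, at least 99.776% of values lay within 0.1 of whole reads. A count of 0 allows up to 3 reads (log2 level 0.323 to 0.469), for counting error only. Files of one medium differed by more than sampling noise (chi-square per degree of freedom 18.2 to 35.9).

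limma 3.58.1 in R 4.3.3 (lmFit, eBayes with an intensity trend) fitted the 3 media together without covariates. All tests were two-sided and adjusted by Benjamini-Hochberg. Rows needed 0.951 CPM in 2 libraries (10 reads at the median scaled depth) and 15 reads in total. The fit was tested on simulated data. The added 1 shrinks the fold changes of genes with few reads. The named genes are the 10 members, every called gene of the fixed lists, Il2 and Il7r, and the 5 rows most like Il2ra and like Cish. Of these rows, 1 is not reported here. Other genes named were chosen after their values were seen. The members and lists were chosen with earlier results of these data known. Gene symbols were used as deposited, and 99.5% matched RefSeq (GRCm38.p6). Shared 3′ sequence was searched as 50-base stretches of the last 600 bases of coding transcripts in GENCODE M21.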

Additional observations from a re-analysis of the deposited data

How the results depend on the processing

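Over 16 alternatives, 411 of 480 differences of single members kept their direction and their side of the threshold, 49 lost a call, 8 gained one and 12 changed sign. Library totals without Rn45s were added after the data were seen. Between DM and CM the 5 members called became 1 without an intensity trend and 2 with only the media compared in the fit, and 1 to 3 with 1 library left out. Between DM+Met and DM, 0 became 1 under library totals and stayed 0 with 1 library left out. Between DM+Met and CM, 5 became 2 without a trend and 1 to 4 with 1 library left out. It became 7, all higher, under library totals. Fits with 1 library left out assume that the lone library varies like the others.

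The differences that changed sign were small and not called. Under library totals, Il2rb, Stat5b and Cish between DM+Met and DM became 0.34, 0.23 and 0.31, where all rows had a median of 0.34. Leaving out 1 library gave −0.01 to 0.07 for Il2rg, −0.03 to 0.39 for Jak3 and −0.54 to 0.17 for Pim1 between DM and CM. Between DM+Met and DM it gave −0.08 to 0.04 for Il2rb, −0.01 to 0.30 for Stat5a and −0.34 to 0.08 for Stat5b. The causes were not tested.

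Counts over all rows moved by more than 1.5 times in some settings. From 2154 between DM and CM, they were 1329 without a trend, 795 with only those media, and 541 to 1061 with 1 library left out. From 1952 between DM+Met and CM, they were 1265 with no filter, 944 without a trend, and 268 to 1622 with 1 library left out. From 7 between DM+Met and DM, they were 55, 2, 27, 13 and 21 under library totals, no filter, 10 reads in every library, a pseudocount of 5 and limma-voom, and 0 without a trend (1192 at an unadjusted p below 0.05), with only those media (1303) and with 1 library left out (431 to 2006).

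With the file number as a replicate block, 5, 0 and 5 members were called in the 3 comparisons, as without it. No pairing by number was seen, since the differences between library 1 and library 2 correlated at −0.02, 0.005 and −0.03 between media across rows. A shared source that left little trace in these differences would be missed.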
